A study of Mus musculus with 9 samples.

Results

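The mitochondrial ribosomal proteins were followed through 9 RNA sequencing libraries of interscapular brown adipose tissue. Members were taken by symbol, as every protein-coding mouse gene named Mrpl or Mrps followed by a number, which gave 78 genes of the 55416 in the count table. Of these, 49 are named for the large subunit (Mrpl) and 29 for the small subunit (Mrps), and 5 pseudogenes with such names were left out. C57BL/6J mice that all expressed Cas9 were injected in the brown fat with an adeno-associated virus that carried either a control guide RNA (AAV8-Control sgRNA, 5 samples) or a guide against Ucp1 (AAV8-UCP1 sgRNA, 4 samples). The animals were 8 to 10 weeks old and were housed at 22 °C for 14 days after the injection. The labels name neither the promoter that drives Cas9 nor the sex of the mice. Each column of the table is named by a number and the tissue, and no label ties a column to a guide. All 9 libraries are therefore described together, lettered A to I in ascending order of the column's number, and no comparison between the guides was made.

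The mitochondrial ribosome translates the few proteins encoded by mitochondrial DNA, all of them subunits of the respiratory chain and the ATP synthase. Its proteins are made from nuclear genes and imported, while its ribosomal RNAs, mt-Rnr1 of the small subunit and mt-Rnr2 of the large, are transcribed inside the organelle. Brown adipocytes are rich in mitochondria, and Ucp1, the uncoupling protein of the inner membrane, lets them release energy as heat.

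The libraries held 15460829 to 17909534 counts. All 10 brown adipocyte markers passed the detection filter (a level of at least 1 CPM, the usual unit of counts scaled to the library's total, in at least 3 libraries), with Fabp4 at 3364 to 5070 CPM and Cidea at 1265 to 1749 CPM. Markers of other cells were present as well. The 10 skeletal muscle markers summed to 181 CPM in library C and 3511 CPM in library F, and none of them was at 0. The 7 immune markers summed to 28.9 to 87.3 CPM, with the highest value in library H. The sums were 383 to 609 CPM for 5 endothelial markers, 139 to 332 CPM for 5 stromal markers, 34.7 to 124 CPM for 3 white adipocyte markers and 187 to 353 CPM for 3 erythroid markers. In bulk tissue, fewer cells of a type and less RNA per cell cannot be told apart.

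Promoters of nuclear genes for mitochondrial proteins often hold sites for Nrf1, for Ets factors such as Gabpa and for Yy1, and the members' promoters were searched for their core motifs. RefSeq promoters (build GRCm38.p6, 250 bases before to 50 after the start) were at hand for 69 of the 78 members. Both strands were searched. The core bound by the factor Nrf1, as printed in capitals for Mrpl9 below but with any base at its sixth position, was found in 13 members (18.8%), against 7.17% of 17492 protein-coding genes and 5.19% of all 27025 genes with such promoters. The strict form, exactly the capitals of Mrpl9, whose matches are also matches of the first, was found in 3 members (4.35%), against 1.47% of protein-coding genes. CCGGAAG, the core of Ets-family sites, was found in 26 members (37.7%), against 12.9% of protein-coding genes and 9.93% of all genes. AAGATGGCG, the core bound by Yy1, was found in 8 members (11.6%), against 2.14% and 1.64%. In all of these but Mrpl36 and Mrps11 the match lay after the start, in the transcribed part, on the gene's strand. At least 1 of these motifs was present in 41 members (59.4%), 19.97% of protein-coding genes and 48.6% of the 70 cytosolic ribosomal protein genes with a promoter. The median GC content was 58.7% in the members and 56.3% in protein-coding genes. The base pair CG, which each of these motifs holds, differed more. Its median count per promoter was 21 in the members, 13 in protein-coding genes and 7 in all genes. The part of base composition in the matches was not tested. A match is a description of the letters, and the libraries hold no measurement of binding. The stretches below all lie before the start and show, with 25 bases on each side or up to the start, the 3 members with the strict Nrf1 core (Mrpl9, Mrpl32 and Mrpl39), 2 with the looser core (Mrpl12 and Mrps21) and 1 with the Ets core (Mrps16). Each is read 5′ to 3′ on the gene's strand with the motif in capitals. In Mrpl12, Mrps21 and Mrps16 the motif lies on the opposite strand, so their capitals are its reverse complement.
Mrpl9 (chr3:94443283-94443335, plus strand): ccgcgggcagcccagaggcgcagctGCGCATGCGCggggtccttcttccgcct
Mrpl32 (chr13:14613090-14613149, minus strand): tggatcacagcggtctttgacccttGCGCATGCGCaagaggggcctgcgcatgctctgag
Mrpl39 (chr16:84735335-84735394, minus strand): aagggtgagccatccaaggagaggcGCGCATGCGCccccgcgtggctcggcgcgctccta
Mrpl12 (chr11:120484531-120484590, plus strand): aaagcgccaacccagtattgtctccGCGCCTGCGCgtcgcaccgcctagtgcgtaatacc
Mrps21 (chr3:95871571-95871630, minus strand): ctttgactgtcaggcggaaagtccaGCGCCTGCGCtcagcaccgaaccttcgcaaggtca
Mrps16 (chr14:20393533-20393589, minus strand): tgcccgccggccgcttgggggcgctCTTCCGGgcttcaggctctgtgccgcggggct

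Transcripts of 77 of the 78 members were counted in every library. Together the family made up 0.338% to 0.444% of all counts, and the median over libraries of its summed level was 3854 CPM. Median levels of single members ran from 5.82 CPM to 178 CPM among those 77, with a median of 38.7 CPM over all 78 and quartiles of 26.0 and 59.6 CPM. The 8 members with the highest medians held 27.4% of the summed medians.

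The most counted member was Mrpl42, a large subunit protein without a bacterial counterpart, at 154 CPM in its lowest library, 178 CPM in the median and 213 CPM in the highest. Mrpl4, which lines the tunnel through which new proteins leave the ribosome, ranged over 133, 156 and 177 CPM (lowest, median and highest). Mrpl12, the stalk protein that draws translation factors to the ribosome, ranged over 128, 155 and 193 CPM. All 3 were lowest in library D. Mrpl38 followed with a median of 124 CPM, Mrpl10, which anchors the stalk, with 113 CPM, and Mrpl30 with 104 CPM. In the small subunit, Mrps2 had the highest median, 116 CPM, and Mrps36 the next, 109 CPM. Mrps36 bears a ribosomal name but is now known as a part of the 2-oxoglutarate dehydrogenase complex of the citric acid cycle.

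Levels of different genes were compared per kilobase of the principal transcript, whose length in GENCODE M21 ran from 418 to 7300 bases in the family. On this scale Mrpl42 was first, at 267 CPM per kb (231.5 to 320 over libraries), and did not overlap the second, Mrpl34, at 171 CPM per kb (133 to 222). Mrpl34 and the third, Mrps36, at 156 CPM per kb (125 to 183), did overlap. Mrpl4 (121 CPM per kb, 103 to 137) and Mrpl12 (118 CPM per kb, 97.5 to 147) could not be ordered either. At the other end stood Mrps25 at 3.74 CPM per kb, Mrpl19 at 4.98 and Mrps33 at 5.26, apart from Mrpl53, which had no counts. This order depends on the length that is used. Per kilobase of the merged exons of all transcripts, Mrpl42 fell to 48.4 CPM, below Mrpl34 (171 CPM), Mrpl12 (101 CPM), Mrps36 (85.6 CPM), Mrps21 (71.4 CPM), Mrpl10 (66.1 CPM), Mrpl4 (59.8 CPM), Mrpl2 (51.0 CPM) and Mrpl38 (48.6 CPM). The lowest detected members were then Mrpl33 (1.26 CPM) and Mrpl23 (3.315 CPM), which had 19.3 and 23.4 CPM per kb of principal transcript. The median member of the large subunit had 29.0 CPM per kb and that of the small subunit 23.0 CPM per kb, with quartiles that overlapped (15.8 to 53.3 against 13.1 to 37.2). The ratio of the subunit medians also depends on the length, being 1.26 with principal transcripts and 1.85 with the merged exons of all transcripts.

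**Figure D1:**
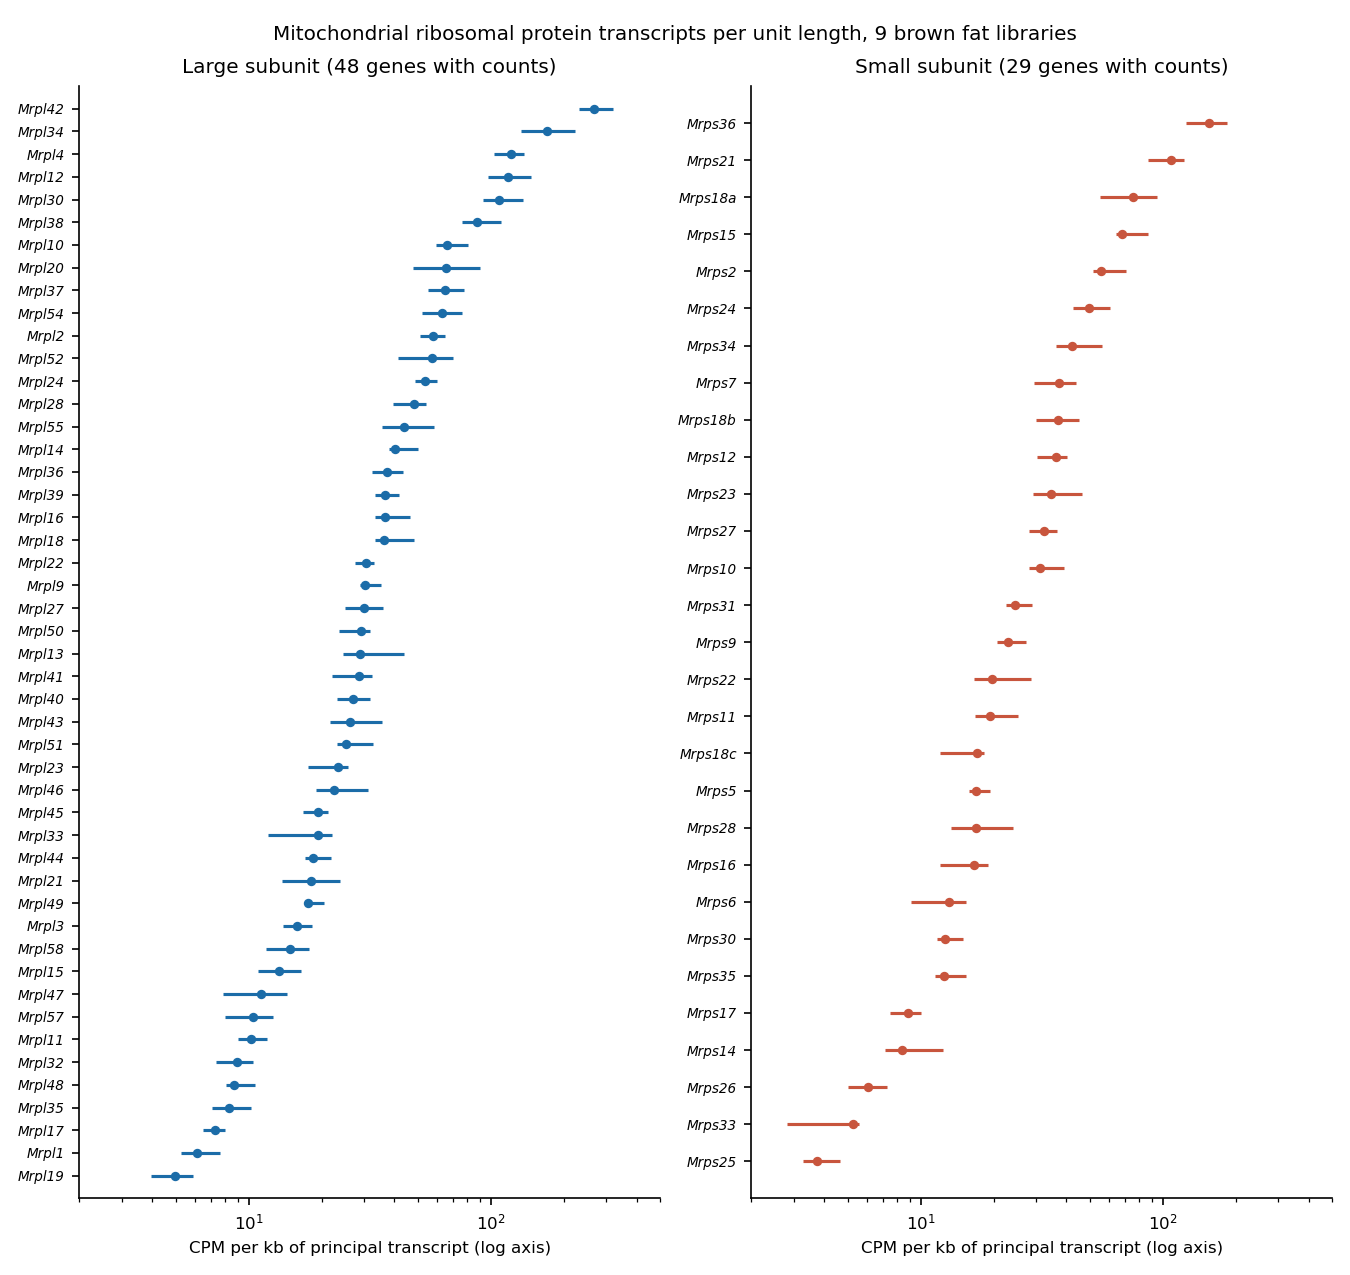
Level per length of the 77 members with counts, in CPM per kb of principal transcript on a log axis, large subunit on the left and small subunit on the right. Points are medians and lines run from the lowest to the highest of the 9 libraries, so that Mrpl42, at 231.5 to 320, lies above every other member with this length, though not with that of merged exons (48.4 against 171 for Mrpl34).

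Several members share exons with other genes, among them Mrpl53, the member with the lowest level. Mrpl53 (ENSMUSG00000030037), a large subunit protein, was listed at 0 in all 9 libraries, where 3 counts would have been 0.168 to 0.194 CPM. In GENCODE M21, 88.0% of its exon bases are also exons of Gm42688, a protein-coding gene on the same strand, and Gm42688 itself had 1 to 17 counts per library. Mrps34, a small subunit protein, shares 77.8% of its exon bases with Nme3 on the same strand and Mapk8ip3 on the opposite strand. It had 33.3, 38.9 and 51.6 CPM (lowest, median and highest), whereas Nme3 was listed at 0 in every library and Mapk8ip3 had 56.9 to 80.4 CPM. Mrps25 shares 69.8% of its exon bases with Nr2c2 on the opposite strand. In all, 18 members share at least 10% of their exon bases with another annotated gene, and 21 share at least 10% of their 50-base sequences with transcripts of another gene. How reads of shared stretches were counted is not given in the sources used here, so levels of these members are uncertain.

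After Mrpl53, the members with the lowest medians follow, each with the lowest, median and highest of the 9 libraries. Mrps33 had 3.10, 5.82 and 6.14 CPM, Mrpl33 5.75, 9.22 and 10.6 CPM, and Mrps18c 7.66, 10.9 and 11.7 CPM. Mrps6 had 7.72, 11.1 and 13.1 CPM and Mrps28 10.4, 13.2 and 18.9 CPM. Mrpl23 had 12.2, 16.2 and 17.8 CPM and Mrps11 17.7, 20.3 and 26.55 CPM. Of these, Mrps33, Mrps18c, Mrps6 and Mrpl23 share 13.3%, 22.9%, 17.3% and 11.8% of their 50-base sequences with other genes. Mrps33 had only 53 to 110 counts per library, so its values carry the largest counting error of the members detected.

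Mammals have 3 paralogs of the bacterial ribosomal protein S18, and their transcripts differed in level in every library. Mrps18a, whose product sits in the large subunit despite its name, had 48.8, 66.5 and 83.6 CPM (lowest, median and highest). Mrps18b had 32.3, 39.9 and 48.7 CPM and Mrps18c 7.66, 10.9 and 11.7 CPM. Per kilobase of principal transcript the medians were 75.3, 37.0 and 17.1 CPM, in the same order, but per kilobase of merged exons they were 18.03 CPM for Mrps18a, 19.1 CPM for Mrps18b and 10.1 CPM for Mrps18c, so that the first 2 changed places. Mrps18b shares 30.5% of its exon bases with Gm16279 on the opposite strand, and Gm16279 had 0.867 to 1.75 CPM.

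Among members with a special role, Mrpl58, the peptidyl-tRNA hydrolase that frees stalled ribosomes, had 30.7, 38.6 and 45.9 CPM. Mrps12, at the decoding centre, had 26.8, 31.9 and 35.6 CPM. Mrpl44, which has the fold of a ribonuclease, had 24.3, 26.4 and 31.1 CPM, and Mrpl3, a core protein of the large subunit, had 55.1, 62.6 and 72.6 CPM. Mrps14 and Mrps16, both with bacterial counterparts, had medians of 25.03 and 42.9 CPM, Mrps21 one of 52.8 CPM and Mrpl40 one of 34.6 CPM.

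The summed level of the large subunit ran from 2263 CPM in library D to 2977 CPM in library H, with a median of 2610 CPM. That of the small subunit ran from 1121 CPM to 1467 CPM in the same 2 libraries, with a median of 1273 CPM. The ratio of the sums ran from 1.98 in library E to 2.10 in library F with a median of 2.03. As a share of the family's counts, the large subunit made up 66.5% in library E (95% Wilson interval 66.1% to 66.8%) and 67.7% in library F (67.3% to 68.1%). These 2 intervals, which cover counting error only, do not overlap. Counting Mrps18a and Mrps30, both placed in the large subunit by structures, with that subunit and leaving Mrps36 out raised the median ratio to 2.58.

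**Figure D2:**
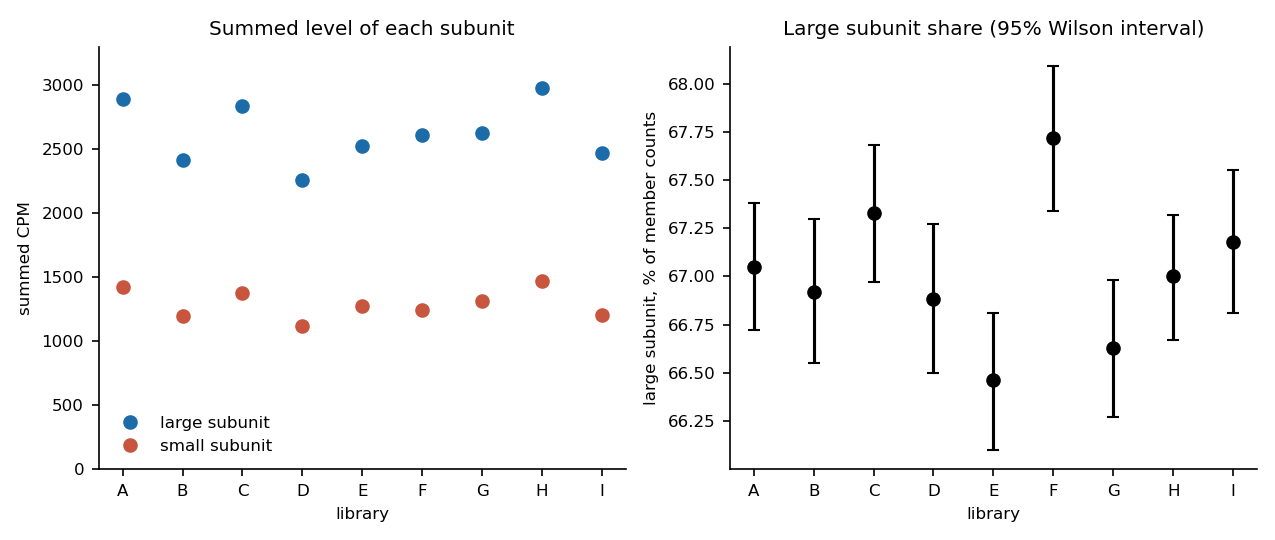
Summed CPM of the large and small subunit members in each library (left) and the large subunit's share of the family's counts with 95% Wilson intervals (right, axis not from 0). Both sums are lowest in library D and highest in library H, and the share stays between 66.5% and 67.7%.

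The summed level of the family was 3383 CPM in library D, 3608 in library B, 3675 in library I, 3796 in library E, 3854 in library F, 3938 in library G, 4218 in library C, 4318 in library A and 4444 in library H. The highest was 1.31 times the lowest. Over the same libraries the summed level of the cytosolic ribosomal protein genes spanned 1.53-fold, from 5295 CPM in library D to 8083 CPM in library C. The order of the libraries depends on the scaling. As CPM of the counts on genes other than mt- genes, library C came first (6157) and library H second (5914), with library D still last (5062) and a span of 1.22-fold. With TMM sizes library C was also first and library B last.

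In 6 libraries at least 52 of the 77 members lay on the same side of their own medians. On the log2(CPM + 1) scale, the median member lay 0.18 above its own median in library H, with 69 of 77 members above and 5 below. It lay 0.14 above in library A (61 above, 11 below) and 0.13 above in library C (52 above, 13 below). In library D it lay at -0.20, with 3 members above and 72 below, in library B at -0.10 (8 above, 60 below) and in library I at -0.07 (11 above, 58 below). The median of all genes that passed the filter was at -0.10 in library D and between -0.01 and 0.02 in the other libraries. Under the other 3 scalings (counts outside mt- genes, TMM, DESeq2 size factors), library H and library C stayed above 0 and library D stayed below. Library A fell to 0.00 and library B rose to 0.00 when mt- counts were left out of the total. By CPM, the highest value was in library H for 34 members, and the lowest in library D for 47. Neither these counts nor those of members above and below their own medians were made over all genes or under the other scalings. They cannot therefore be read as particular to the family. The median cytosolic ribosomal protein gene lay at -0.35 in library D and at 0.23 in library H. Library D also had the lowest sums of brown adipocyte (9949 CPM) and immune markers, and library H the highest sum of immune markers. The brown adipocyte sum includes Ucp1, at 2704 CPM in library D and 396 to 605.6 CPM in libraries A, E, G and H. That sum was nearly as low in library E (10050 CPM) and library H (10250 CPM). Library C had the lowest sum of muscle markers and library F, where the family stood at its median, the highest. The part of other cell types in these differences was not tested.

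**Figure D3:**
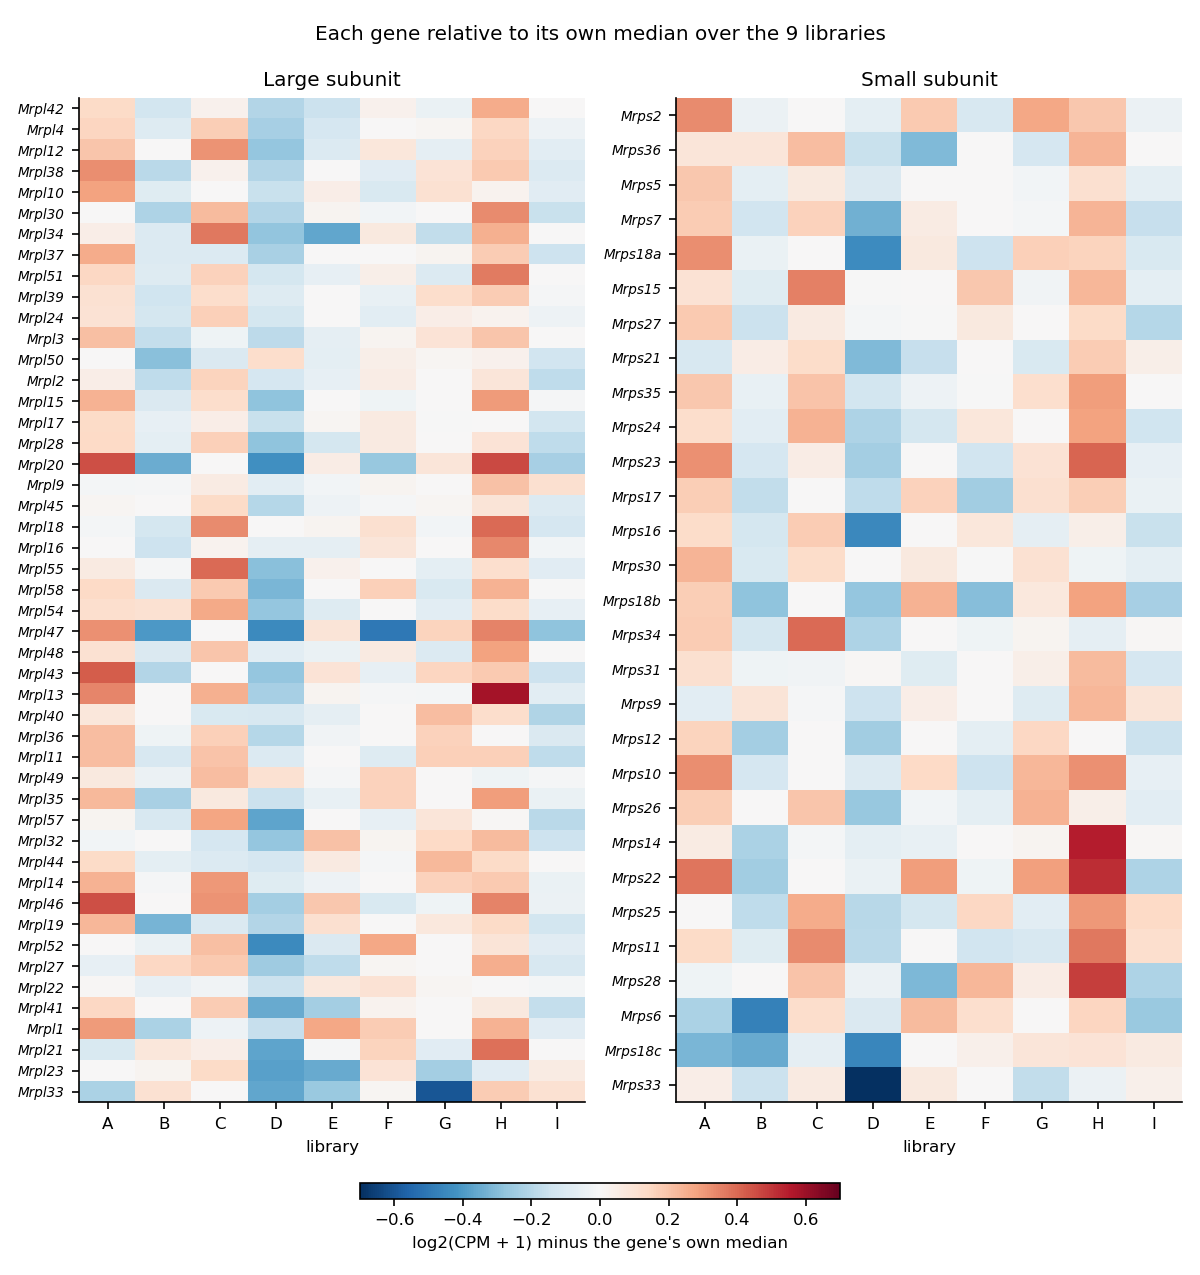
Log2(CPM + 1) of each member minus its own median over the 9 libraries, members in order of median level, libraries in order of their number, red above and blue below. The columns of library H and library A are mostly red and that of library D mostly blue in both subunits.

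As a measure of how closely a member followed the rest, Pearson's r was taken between its log2(CPM + 1) and that of the sum of the other members over the 9 libraries. These are descriptions, since the points share library totals. The median r was 0.74 over 77 members and all were above 0. Against the summed family, the median r of 12527 other genes was 0.15, with 61.7% above 0. These were all other genes that passed the filter, mt- genes included, and were not matched to the members in level. The part of level and counting error in the difference was not tested. Without the 2 libraries farthest from the median sum, the members' median r was 0.68 and 70 of 77 were above 0. Mrpl15 (0.97), Mrps35 (0.97), Mrps7 (0.96), Mrpl4 (0.94), Mrpl13 (0.93) and Mrps5 (0.92) followed the family most closely. Mrpl49 (0.09), Mrpl50 (0.10), Mrpl33 (0.21), Mrps9 (0.33), Mrpl23 (0.39) and Mrps6 (0.39) followed it least. For Mrpl50 and Mrpl49 these low values rested on the 2 farthest libraries, D and H, without which r was 0.53 and 0.64, while that of Mrps9 turned to -0.78. Mrpl50 was the 1 member with its highest value, 67.0 CPM, in library D.

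The non-members whose log2(CPM + 1) was most like the summed family were D8Ertd738e (r of 0.98), Rps2 (0.96), Tcp1 (0.96), Elob (0.96), Sdhc (0.96), Coa3 (0.95), Pofut2 (0.95), 2010003K11Rik (0.95), Bola2 (0.95) and Atp5g2 (0.95). Tcp1 shares exon bases with Mrpl18, a member.

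The span of each gene was taken as its highest over its lowest CPM. Among genes at the members' levels (medians of 5.82 to 178 CPM), the highest library was at least 1.5 times the lowest for 60.7% of genes. Among the 77 members with a median of 5 CPM or more it was so for 24, or 31.2%, of which 13 of 48 were in the large and 11 of 29 in the small subunit. The median ratio of highest to lowest was 1.44 in the members, 1.57 in the other genes at these levels and 1.64 in 84 cytosolic ribosomal protein genes. The members' median level, 38.9 CPM, was above that of the other genes, 23.8 CPM, and the part of level in the difference was not tested. Without library D the count was 11 members (14.3%), and the share of all genes at these levels was 54.5%. Against counting error alone, the variance of the counts was 8.28 times larger in the median member and 9.09 times in the median other gene.

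**Figure D4:**
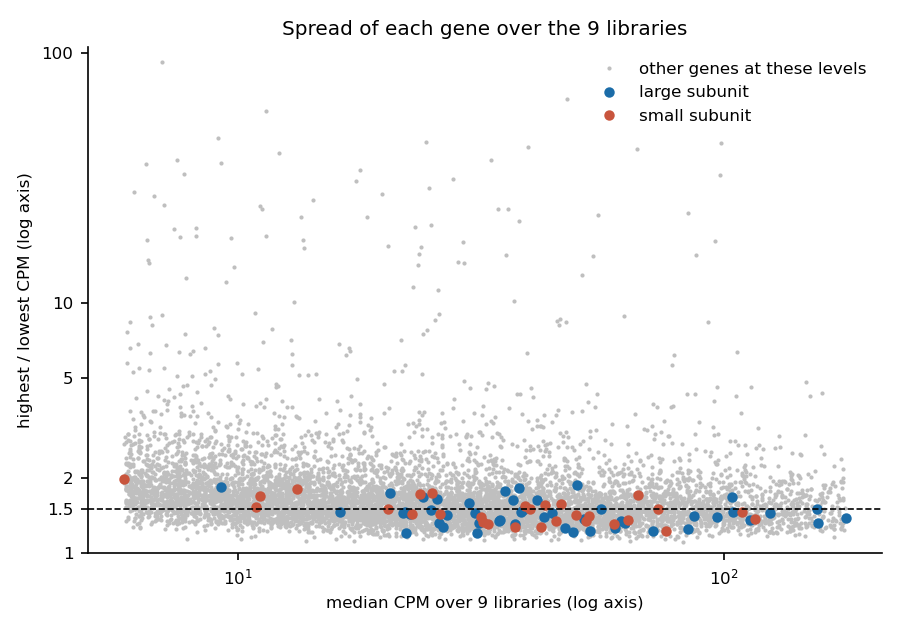
Highest over lowest CPM of the 9 libraries against the median CPM, both on log axes, for other genes at these levels (grey) and the members (blue and red), with a dashed line at 1.5. The members lie between 1.20 and 1.98, with a median of 1.44 against 1.57 for the grey points.

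The widest spans were those of Mrps33 (1.98), Mrpl20 (1.88), Mrpl33 (1.84), Mrpl47 (1.83), Mrps28 (1.81) and Mrpl13 (1.78), as the ratio of highest to lowest CPM. That of Mrps33 rested on library D, without which it was 1.22, while the other 5 stayed at 1.505 or more with any single library left out. Mrpl20, a large subunit protein with a bacterial counterpart, had 36.6 CPM in library D, a median of 49.7 CPM and 68.8 CPM in library H, and its variance was 49.0 times that of counting error. Mrpl47 ran from 26.45 CPM in library F to 48.4 CPM in library H around a median of 37.9 CPM, and 24.2% of its exon bases are shared with Actl6a and Ndufb5. Mrpl13 had a median of 35.4 CPM and 53.4 CPM in its highest library, H. Libraries A, E, G and H, where Ucp1 was low, all lay above the other libraries in 2 of these members. They were at 51.5 to 68.8 against 36.6 to 49.7 CPM in Mrpl20, and 40.4 to 48.4 against 26.45 to 37.9 CPM in Mrpl47. In Mrps33, Mrpl33, Mrps28 and Mrpl13 the values overlapped. Leaving out a single library cannot show such a split, and a relation with Ucp1 was not tested. The narrowest spans were those of Mrpl22 (1.20), Mrpl49 (1.20), Mrpl9 (1.22), Mrps5 (1.23), Mrpl24 (1.23) and Mrpl17 (1.23). Mrpl22, which also lines the exit tunnel, had 19.8, 22.1 and 23.8 CPM, and its variance was 1.015 times that of counting error, although 22.4% of its 50-base sequences are shared with other genes. At this depth no variation of Mrpl22 beyond counting was detectable.

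Each of the ribosome's own RNAs spanned more than the summed transcripts of its proteins (1.31-fold). A sum over many genes is an unlike measure, however, and the widest single member, Mrps33, spanned 1.98-fold. Mt-Rnr1 was at 3504 CPM in library A, at 6196 CPM in the median library and at 8985 CPM in library F, a span of 2.56-fold. Mt-Rnr2 was at 9863 CPM, 12810 CPM and 19580 CPM, with the same lowest and highest library, a span of 1.985-fold. Library A, lowest in both RNAs, had the second highest sum of the proteins, 4318 CPM. Library C, second highest in both RNAs (7425 and 18320 CPM), had a sum of 4218 CPM. Both RNAs were lower in libraries A, E, G and H than in all others. These were 3504 to 5161 against 6196 to 8985 CPM for mt-Rnr1, and 9863 to 12650 against 12810 to 19580 CPM for mt-Rnr2. A relation of these RNAs with the proteins was not tested. The labels do not say how RNA was selected for the libraries, which bears on the level of these RNAs.

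A relation of the family with the share of counts on mt- genes, or with Ucp1, was not tested. Ucp1 was at 396 to 606 CPM in 4 libraries and 2704 to 4620 CPM in 5. The mt- share was 22.3% to 26.45% in 4 libraries and 31.5% to 33.9% in 5. Neither side of these gaps holds 6 libraries, so no correlation was taken across or within them, and the sets were not matched to guides. Side by side, the summed family level was 4318 CPM at a mt- share of 22.3% (library A), 4444 CPM at 24.9% (library H), 3796 CPM at 25.8% (library E) and 3938 CPM at 26.45% (library G). It was 4218 CPM at 31.5% (library C), 3675 CPM at 31.8% (library I), 3383 CPM at 33.2% (library D), 3608 CPM at 33.8% (library B) and 3854 CPM at 33.9% (library F). The total by which CPM is divided includes the mt- counts, and their part in the family's levels was not tested. The summed level did not part so widely. The widest step between neighbouring sums, from 3938 to 4218 CPM, is 26.4% of their range, against 60.9% for log2(CPM + 1) of Ucp1 and 43.3% for the mt- share. This holds for the sum only, since gaps were not sought in single members. In some members, among them Mrps2, Mrps22, Mrpl20 and Mrpl47, libraries A, E, G and H all lay above the other 5. For Mrps2 these were 131.9 to 146.3 CPM against 107.1 to 115.9 CPM. In others, such as Mrpl42, the 2 sets overlapped.

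**Figure D5:**
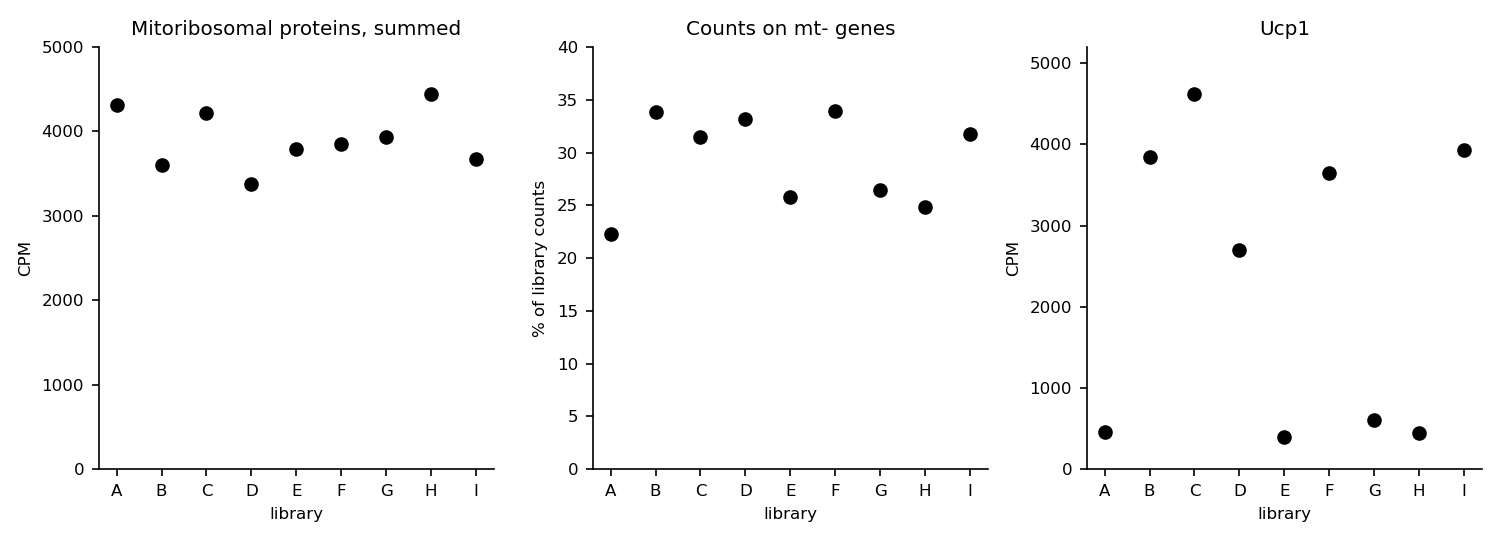
Summed CPM of the 78 members (left), percent of counts on mt- genes (middle) and Ucp1 CPM (right) in each library, all axes from 0. Ucp1 and the mt- share leave a gap between 4 and 5 libraries, while the summed members lie between 3383 and 4444 CPM without one.

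Genes that work with the mitochondrial ribosome were taken from lists, and their counts at a ratio of 1.5 or more stand beside the 60.7% of genes at the members' levels. The 5 ribosomal proteins with other symbols had a median highest-to-lowest ratio of 1.45 and none reached 1.5. Of these, Aurkaip1 had a median of 84.5 CPM, Ptcd3 of 69.5 CPM (62.6 to 91.6), Dap3 of 50.1 CPM (43.3 to 54.0), Gadd45gip1 of 29.7 CPM and Chchd1 of 27.2 CPM. Of 24 assembly factors, 9 reached 1.5. Mpv17l2 was the highest of them at a median of 55.35 CPM (40.5 to 70.8), and Ybey, an endonuclease for ribosomal RNA, the lowest at 3.35 CPM. Of 14 translation factors found, 3 reached 1.5. The elongation factor Tufm had a median of 212 CPM (199 to 269), and Gfm1, which moves the ribosome along, 171 CPM (138 to 235), while the release factor Mtrf1l had 5.64 CPM. Of 17 mitochondrial tRNA synthetases, 8 reached 1.5, with Iars2 highest in level (median 215.5 CPM, 187 to 232) and Lars2 widest in span (73.7 to 157 CPM, 2.13-fold, but 1.43-fold without library G). Of 15 genes of mitochondrial transcription and RNA handling found, 9 reached 1.5, or 60.0%, near that share, and of 9 transcription factors and coactivators of mitochondrial genes, 7, or 77.8%. Among the last, Ppargc1a, the coactivator of mitochondrial biogenesis, ran from 46.7 to 392 CPM, an 8.41-fold span that was 3.20-fold without library E.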

How the data were processed

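The authors deposited unnormalized counts, whole numbers, for each Ensembl gene; the submitters' processing notes name FastQC, STAR, DESeq2 and the build GRCm39, without versions or roles. How reads were assigned to genes, and whether by strand, is not given in the sources used here. None of the 9 columns can be given to a guide, and all were used as libraries of 1 tissue, with lowest, median and highest values and no test between groups. Counts were divided by the column sum (CPM). Genes with a CPM of at least 1 in at least 3 libraries passed the filter (12604 genes), and logs used a pseudocount of 1. Symbols were found for 52083 of 55416 identifiers (99.8% of counts) in the reference table of gene names, and biotypes, lengths and exon overlaps came from GENCODE M21 (GRCm38); no coordinates were carried to the counts. No 2 columns were identical. Scaling alternatives used edgeR 4.0.16 (TMM) and DESeq2 1.42.0 (size factors) in R 4.3.3; the rest used Python 3.11.15 with scipy 1.17.1. The code for spread and correlation was checked on simulated counts.

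The planned tests against the mt- share and Ucp1 were not run, because both measures part the libraries into sets of fewer than 6. The plan held a condition on gaps for Ucp1 only, and the limit of 6 was not part of it. Leaving out the test against the mt- share was thus a departure from the plan. The genes that were to be named by those tests are not named. Named members are the 8 highest and lowest by level, the 6 widest and narrowest in span, the 6 most and least like the rest, and a list by role; Mrpl20, Mrpl47 and Mrpl13 are given in more detail as members of the widest 6, and Mrpl34, Mrpl19, Mrps25 Mrpl2, Lars2, Ppargc1a and the genes that share exons with members were picked after their values were seen. The members and lists were chosen with earlier results of these data known.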

Additional observations from a re-analysis of the deposited data

Results flagged for a closer look

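Of 81 sets of 9 values (77 members, the 3 sums and the ratio of the subunits), 3 had a library set apart from the others by more than 0.493 of the whole range; chance alone gives about 1 in 20. Mrps14 was at 37.1 CPM in library H, against 26.1 CPM in the next library, a gap of 0.6985 of its range. Mrpl16 was at 53.9 CPM in library H, against 45.15 CPM in the next, a gap of 0.568. Mrps33 was at 3.10 CPM in library D, against 5.05 CPM in the next lowest, a gap of 0.642, on 53 counts.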

How the results depend on the processing

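The median summed level of 3854 CPM became 5452 when divided by counts outside mt- genes alone, and 3027 CPM over members that share under 10% of exon bases with another gene, since both change what is summed or divided by; it stayed between 3825 and 3896 CPM with each library left out. The span of the sums, 1.31-fold, was 1.22 without mt- counts, 1.21 with TMM and 1.22 with DESeq2 size factors, and 1.23 to 1.31 with each library left out. The median ratio of the subunits, 2.03, was the same under every scaling, 2.10 over members with little shared exon sequence and 2.58 with Mrps18a and Mrps30 moved and Mrps36 left out. Its span, 1.06-fold, was 1.08 from medians of relative levels and 1.04 to 1.06 with each library left out. The per-length ratio of the subunits, 1.26, was 1.85 with merged exon lengths and 1.47 over members with little shared exon sequence. The 24 members with a ratio of 1.5 or more were 17 to 19 under other scalings, where 54.9% to 56.5% of genes at these levels reached it, and 11 to 24 with each library left out (54.5% to 58.9% of genes), 11 being without library D. The lengths, the exon limit, the subunit change and all alternatives for that count were chosen after seeing the data. Other settings for the tests and correlations with the mt- share and Ucp1 were not run. No paired analysis was made, since the labels name no pairs of samples.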

Other observations

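The 9 values of Ucp1 fell into separate clusters. Ucp1 was at 396 CPM in library E, 445 CPM in library H, 459 CPM in library A and 606 CPM in library G. It was at 2704 CPM in library D, 3652 CPM in library F, 3848 CPM in library B, 3937 CPM in library I and 4620 CPM in library C. On the log2(CPM + 1) scale the gap between them, from 9.24 to 11.4, was 2.16, against ranges of 0.61 and 0.77 on its sides. The mt- share had its widest gap between the same libraries, 5.03 percentage points. No label or column name says which guide these libraries received.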
